A study of Mus musculus with 15 samples.

Results

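The immunoglobulin variable (V) segments of mouse liver described here are 82 genes, chosen by a symbol that starts with Ighv, Igkv or Iglv and selected on their counts, which had to sum to 50 or more over 15 mice. They were 34 heavy-chain segments of 185, 45 kappa segments of 160 and all 3 lambda segments, so 82 of 348 V genes and of 55450 gene IDs counted in all. Liver RNA of 15 female C57BL/6 mice was sequenced, 1 library per mouse, and the mice formed 3 groups of 5. Corn oil, the vehicle, was given by daily gavage to the Adult group (A1 to A5), aged 6 months when the study began, and to the Old group (O1 to O5), aged 22 months. The PDX group (P1 to P5), also aged 22 months, received the lipid mediator protectin DX at 30 ng per g of body weight in corn oil. The gavage lasted 9 weeks by the treatment protocol and 8 weeks by the description of the series. The livers were taken at the end of the study, when the mice were older than the ages given here. The age of a group and the cohort it came from cannot be told apart, and no group of 6 months received protectin DX. The mice were euthanized in batches, the batch of each mouse is not given in the sources used here, and the part of batches in the results below was not tested.

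A B cell makes its antibody by joining 1 V segment to a joining segment, with a diversity segment between them in the heavy chain, and the joined V region is transcribed together with a constant region. All daughter cells of that B cell carry the same joined pair of a heavy and a light chain, and plasma cells transcribe it at a very high level. The V segments found in the RNA of a tissue therefore record which B cells and plasma cells it held, and the share of a single segment in all V counts describes how far one or a few B cell lines dominate. A segment is not a clone, because unrelated B cells can use the same V segment. Fewer B cells and less antibody RNA per B cell cannot be told apart in RNA of whole liver.

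The last 300 coding bases of 7 segments are shown, because they were the largest heavy and light segments of the mice O3, O2 and P4, in which a single heavy segment took the largest shares, or, for Igkv5-39, the light segment that led in most Adult mice. They are from the GENCODE M21 annotation of GRCm38 (mm10), 5′ to 3′, and the capitals run from the last in-frame cysteine codon, which closes the conserved framework, to the 3′ end, where the joining segment is added.
Ighv1-11: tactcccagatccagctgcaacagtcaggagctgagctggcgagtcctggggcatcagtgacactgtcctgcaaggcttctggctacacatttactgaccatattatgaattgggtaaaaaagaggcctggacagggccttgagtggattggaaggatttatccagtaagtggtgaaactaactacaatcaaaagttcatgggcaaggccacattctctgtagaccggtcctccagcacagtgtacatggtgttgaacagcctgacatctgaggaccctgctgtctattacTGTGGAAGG
Igkv3-7: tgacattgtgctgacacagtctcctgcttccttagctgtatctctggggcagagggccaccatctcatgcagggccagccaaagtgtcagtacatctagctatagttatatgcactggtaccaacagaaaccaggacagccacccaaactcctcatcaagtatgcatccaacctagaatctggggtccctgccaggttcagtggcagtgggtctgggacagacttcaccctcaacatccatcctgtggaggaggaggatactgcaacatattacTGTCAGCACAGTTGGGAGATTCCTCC
Ighv1-55: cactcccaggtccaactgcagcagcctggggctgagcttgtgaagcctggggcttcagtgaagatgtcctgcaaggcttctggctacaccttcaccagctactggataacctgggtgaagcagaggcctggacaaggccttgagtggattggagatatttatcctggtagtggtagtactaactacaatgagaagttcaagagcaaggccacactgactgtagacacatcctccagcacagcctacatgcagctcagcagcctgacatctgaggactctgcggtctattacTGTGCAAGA
Igkv17-127: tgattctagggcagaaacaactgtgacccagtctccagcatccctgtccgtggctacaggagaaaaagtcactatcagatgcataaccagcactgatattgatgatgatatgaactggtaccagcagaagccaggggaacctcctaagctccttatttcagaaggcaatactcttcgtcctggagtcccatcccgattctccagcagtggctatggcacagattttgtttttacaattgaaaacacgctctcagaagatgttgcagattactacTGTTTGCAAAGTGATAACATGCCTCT
Ighv1-22: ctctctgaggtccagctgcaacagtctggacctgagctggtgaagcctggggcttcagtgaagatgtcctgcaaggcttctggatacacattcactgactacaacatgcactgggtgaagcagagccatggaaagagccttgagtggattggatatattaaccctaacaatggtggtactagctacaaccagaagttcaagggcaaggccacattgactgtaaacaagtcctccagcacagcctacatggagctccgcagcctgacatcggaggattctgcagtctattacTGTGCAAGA
Igkv4-55: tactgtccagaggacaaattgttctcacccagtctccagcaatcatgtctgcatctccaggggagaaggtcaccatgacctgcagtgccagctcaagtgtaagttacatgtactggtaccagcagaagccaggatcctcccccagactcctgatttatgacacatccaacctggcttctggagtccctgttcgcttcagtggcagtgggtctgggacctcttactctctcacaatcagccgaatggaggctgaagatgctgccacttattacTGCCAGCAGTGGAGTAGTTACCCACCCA
Igkv5-39: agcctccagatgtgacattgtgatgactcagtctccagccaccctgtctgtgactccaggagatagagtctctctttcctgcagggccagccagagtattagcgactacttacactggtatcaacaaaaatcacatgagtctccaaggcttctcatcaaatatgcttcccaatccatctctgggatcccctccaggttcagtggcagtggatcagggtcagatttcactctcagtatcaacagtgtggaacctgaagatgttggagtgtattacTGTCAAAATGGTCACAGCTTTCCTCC

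Ighv1-11 (ENSMUSG00000102888) lies at chr12:114612243-114612675, Ighv1-55 (ENSMUSG00000095589) at chr12:115208095-115208591 and Ighv1-22 (ENSMUSG00000094561) at chr12:114746273-114746706, all on the minus strand. Igkv3-7 (ENSMUSG00000076598) at chr6:70607437-70608036 and Igkv17-127 (ENSMUSG00000076508) at chr6:67861153-67861659 lie on the plus strand, and Igkv4-55 (ENSMUSG00000096833) at chr6:69607275-69607828 and Igkv5-39 (ENSMUSG00000076569) at chr6:69900424-69900977 on the minus strand. The annotation gives all 82 genes the type of a functional V gene. The 34 heavy segments lay on the minus strand of chromosome 12 between 113588267 and 115953005, and the 45 kappa segments on chromosome 6 between 67609713 and 70699067, 28 of them on the minus and 17 on the plus strand. The 3 lambda segments lay on the minus strand of chromosome 16 between 19085017 and 19260859.

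Close relatives limit how a read can be placed. Of the 50-base words in the annotated transcript of a segment, a median of 77.0% occurred in the transcript of no other V gene. All words were its own in 14 segments, and fewer than 50% in 13 segments, down to 7.49% in Ighv1-72. Among the segments printed above, Ighv1-11 and Igkv5-39 had 100% of their words to themselves, Ighv1-22 77.2%, Ighv1-55 65.3%, Igkv17-127 64.7%, Igkv3-7 60.0% and Igkv4-55 46.7%. The 10 heavy segments that led in a mouse shared 59.4 to 96.9% of their aligned bases pair by pair (45 pairs), and the 11 leading light segments 61.4 to 91.2% (55 pairs). Only read pairs placed at a single site were counted, so the level of a segment with few words of its own can be understated, and the shares and effective numbers below are of counted read pairs, with no correction for this.

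The 50-count rule looked at summed counts, and so at the mice with the most V counts. Just inside it were Ighv7-3, Ighv1-42 and Igkv10-94 with 53 counts each, and just outside Igkv1-122, Igkv4-80 and Igkv8-19 with 49 counts each. Of the other V genes, 146 had no count in any mouse and 120 had 1 to 49. The 82 segments held 93.8% of all V counts, but the share left outside was 14.0 to 25.9% in the Adult mice, 0.894 to 10.8% in the Old mice and 2.26 to 11.1% in the PDX mice. The rule thus trimmed the V counts of the Adult mice most, and values for the 82 segments are given below as descriptions, without a test over the list.

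The libraries held 22424383 to 36070835 counted read pairs in the Adult mice, 25480180 to 29069346 in the Old mice and 26113995 to 30139181 in the PDX mice. Levels are counts per 1000000 (CPM) of the counted pairs of tested genes after scaling with TMM factors, which ranged from 0.884 to 1.33. The highest factor belonged to O2, which also stood apart in T cell markers and, together with O3, was highest in B cell markers (below). The hepatocyte markers Alb, Apoa1, Ttr and Serpina1a summed to 42443 to 197255 CPM and had counts in all 15 mice. The lowest sums were those of O5 (42443 CPM) and O2 (73385 CPM), against 101892 CPM or more in every other mouse.

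The livers of both older groups held several times more V segment RNA than those of the Adult mice. The V counts summed over the 82 segments were 289, 162, 343, 348 and 257 in A1 to A5, which is 8.12, 5.71, 15.6, 12.7 and 7.37 CPM. They were 1672, 9535, 1519, 1680 and 1662 in O1 to O5, which is 71.0, 279.0, 57.3, 62.4 and 60.0 CPM. They were 909, 4037, 4369, 2122 and 1213 in P1 to P5, which is 35.9, 162.1, 137.8, 75.8 and 41.7 CPM. Every Old and every PDX mouse was above the highest Adult mouse, and the Old and PDX mice overlapped. The median was 8.12 CPM in Adult, 62.4 CPM in Old (7.68 times the Adult median) and 75.8 CPM in PDX (9.33 times). O2 held 59.3% of the V counts of the Old group, and the other 4 Old mice lay close together, whereas the PDX mice were spread over the whole range from P1 to P2. Heavy and light segments showed the same order of groups, with medians of 2.78, 20.2 and 29.6 CPM for the heavy and 5.34, 42.2 and 46.3 CPM for the light segments in Adult, Old and PDX.

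**Figure D1:**
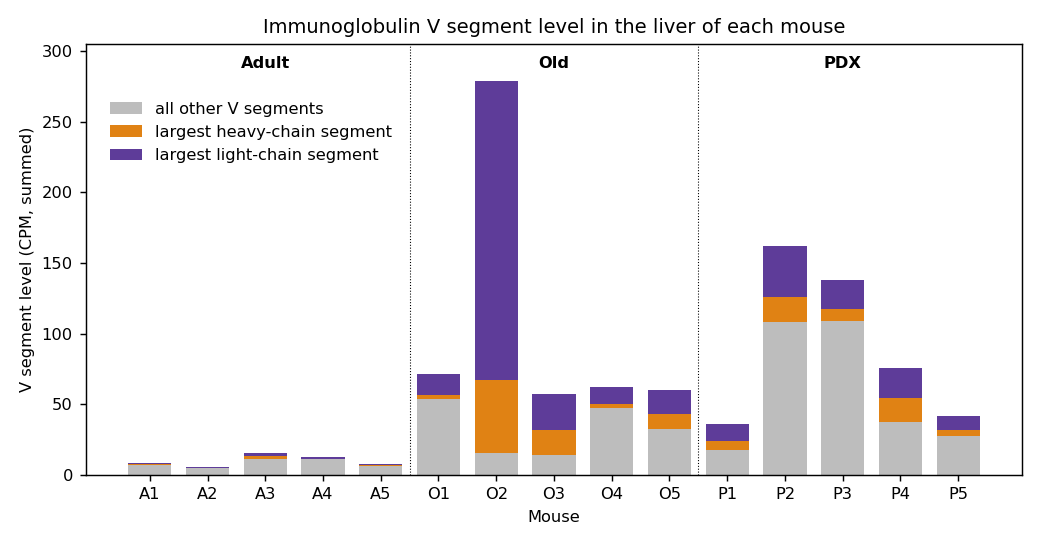
V segment level per mouse (CPM summed over 82 segments, 1 bar per mouse), divided into the mouse's largest heavy segment, its largest light segment and all other segments. The Adult bars end at 5.71 to 15.6 CPM, the Old bars at 57.3 to 279.0 CPM and the PDX bars at 35.9 to 162.1 CPM, and most of the bar of O2 is its 2 largest segments.

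Many of these counts came from a pair of segments in some mice. Without the largest heavy and the largest light segment of each mouse, 7.17, 4.62, 11.4, 10.9 and 6.46 CPM were left in A1 to A5. In O1 to O5 53.7, 15.7, 13.7, 47.4 and 32.3 CPM were left, and in P1 to P5 17.4, 108.1, 108.6, 37.3 and 27.2 CPM. The Old and PDX mice stayed above all Adult mice, but O2, which had the highest total, was now the second lowest Old mouse. The medians of the remainder were 4.51 times (Old) and 5.20 times (PDX) the Adult median.

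A different heavy segment led in almost every older mouse. In O2 1754 of 1931 heavy V counts (90.8%; 95% Wilson interval 89.5 to 92.0) came from Ighv1-55, and in O3 486 of 532 (91.4%; 88.7 to 93.5) from Ighv1-11. In P4 Ighv1-22 made up 57.1% (472 counts), in P1 Ighv9-4 51.8% (171 counts) and in O5 Ighv1-80 44.5% (293 counts). Ighv3-6 led in P2 with 35.3%, Ighv1-18 in P5 with 35.1%, Ighv1-53 in P3 with 20.9%, Ighv1-52 in O1 with 16.4% and Ighv1-26 in O4 with 13.4%. The 5 Old mice thus had 5 different leading heavy segments, and so had the 5 PDX mice. Some leads were near ties: Ighv1-52 had 71 counts in O1 and Ighv1-72 70, Ighv1-26 had 73 in O4 and Ighv1-53 70, and Ighv1-53 had 283 in P3 and Ighv1-55 281. Which segment led in these 3 mice was within counting error. In the Adult mice Ighv1-26 led in A1, A2 and A5 with 11.1, 14.6 and 12.6%, in A2 with as many counts as Ighv1-55, and Ighv1-80 led in A4 with 11.6%. A3 was the exception among the Adult mice, with 47 of 118 heavy counts (39.8%; 31.5 to 48.8) from Ighv1-11. The intervals cover counting error only, since read pairs without molecular identifiers are not independent molecules.

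The light segments showed the same picture. In O2 7244 of 7604 light V counts (95.3%; 94.8 to 95.7) came from Igkv17-127, and in O3 669 of 987 (67.8%; 64.8 to 70.6) from Igkv3-7. Igkv5-43 made up 51.3% in P1 (297 counts), Igkv6-15 47.2% in O5 (473 counts) and Igkv4-55 46.8% in P4 (606 counts). In the remaining older mice the leading light segment took 21.3 to 34.7%, namely Igkv12-46 in P5, Igkv4-57-1 in P2 and O1, Igkv3-2 in O4 and Igkv12-89 in P3. In the Adult mice Igkv5-39 led in A1, A2, A4 and A5 with 12.1, 20.7, 16.1 and 12.4%, and Igkv8-16 in A3 with 20.0%. The largest light share was thus 27.1 to 95.3% in Old, 21.3 to 51.3% in PDX and 12.1 to 20.7% in Adult. The Adult mice did not overlap with either older group, but the gap to PDX was within counting error. A2 had 20.7% (95% Wilson interval 14.4 to 28.7) and P3 21.3% (19.9 to 22.8).

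**Figure D2:**
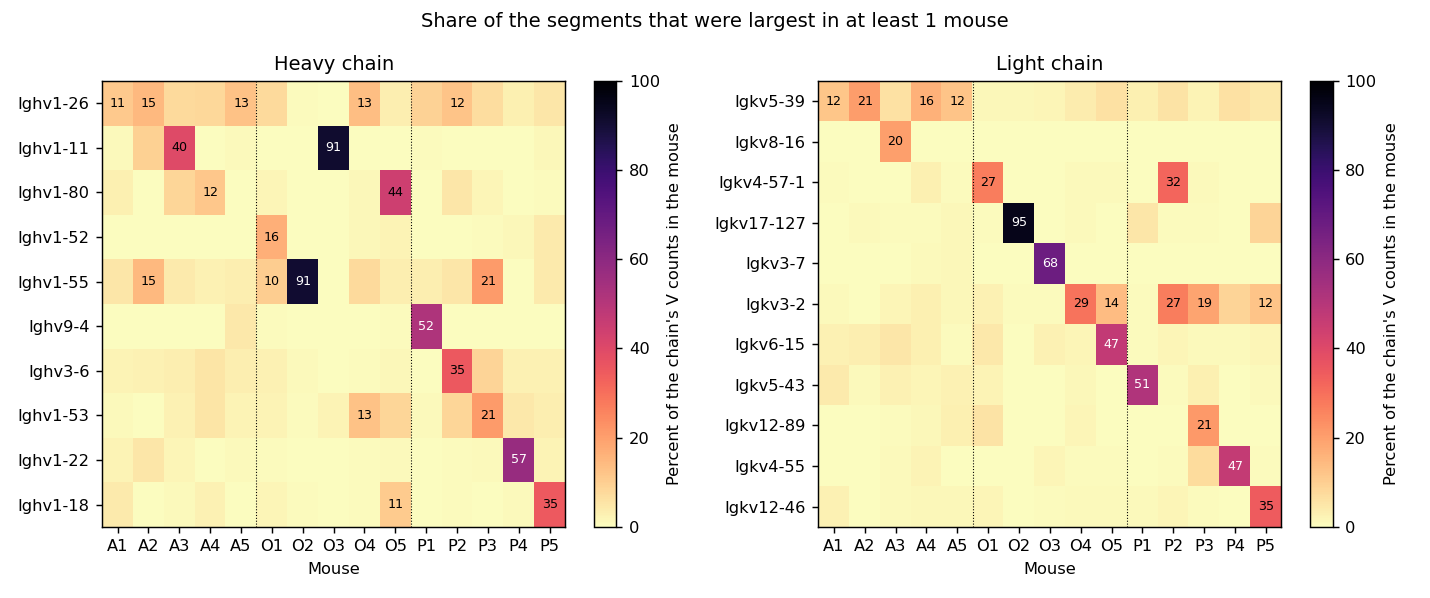
Share of each segment that was the largest in at least 1 mouse (rows) in the heavy (left) or light (right) V counts of each mouse (columns, with dotted lines between Adult, Old and PDX); values of 10% or more are written in the cells. Dark cells stand alone in their row in most older mice, with Ighv1-55 and Igkv17-127 in O2 at 91% and 95% and Ighv1-11 in O3 at 91%, whereas Ighv1-26 and Igkv5-39 are spread over many mice.

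Leading heavy and light segments were large in the same mouse. O2, O3, O5, P1 and P4 had both the highest heavy shares (44.5% or more) and the highest light shares (46.8% or more), with 5 different heavy and 5 different light segments. Whether the heavy and the light segment of a mouse came from the same cells was not tested. Ighv1-11 led both in A3 and in O3, but beside different light segments, Igkv8-16 in A3 and Igkv3-7 in O3. Igkv4-57-1 led in both O1 and P2, beside Ighv1-52 in O1 and Ighv3-6 in P2.

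Every older mouse had more segments with 10 or more counts than any Adult mouse, whereas at equal depth of V counts the medians of the older groups were lower. Segments with 10 or more counts numbered 6, 2, 8, 3 and 5 in A1 to A5, 33, 19, 10, 44 and 29 in O1 to O5 and 13, 54, 61, 24 and 24 in P1 to P5. Segments with at least 1 count numbered 42 to 65 in the Adult, 47 to 79 in the Old and 45 to 82 in the PDX mice. These numbers follow the V counts of each mouse, so the number of segments expected in 162 V counts, the total of A2, was computed for all mice. It was 55.9, 42.0, 47.2, 54.1 and 55.5 in A1 to A5, 42.5, 9.49, 18.7, 48.8 and 38.1 in O1 to O5 and 25.5, 39.9, 45.5, 33.8 and 41.2 in P1 to P5. The medians were 54.1, 38.1 and 39.9, but O1, O4 and P3 reached the range of the Adult mice. O2 and O3 were the lowest of all mice.

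The effective number of segments, the inverse Simpson index, is the number of equally frequent segments that would give the same concentration. For the heavy chain it was 20.9, 13.0, 5.55, 19.5 and 19.2 in A1 to A5, 12.2, 1.21, 1.20, 15.1 and 4.48 in O1 to O5 and 3.15, 6.32, 8.96, 2.93 and 6.60 in P1 to P5. The groups overlapped, since A3 was below O1, O4, P2, P3 and P5. For the light chain it was 24.6, 13.8, 15.0, 20.3 and 24.1 in A1 to A5, 7.82, 1.10, 2.08, 9.08 and 4.00 in O1 to O5 and 3.37, 5.35, 10.2, 4.08 and 6.46 in P1 to P5. Every Adult mouse was above every Old and every PDX mouse in the light chain, with medians of 20.3, 4.00 and 5.35, and the Old and PDX mice overlapped. The index does not shift with depth, but its precision does, and the heavy values of the Adult mice rest on 41 to 118 counts.

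**Figure D3:**
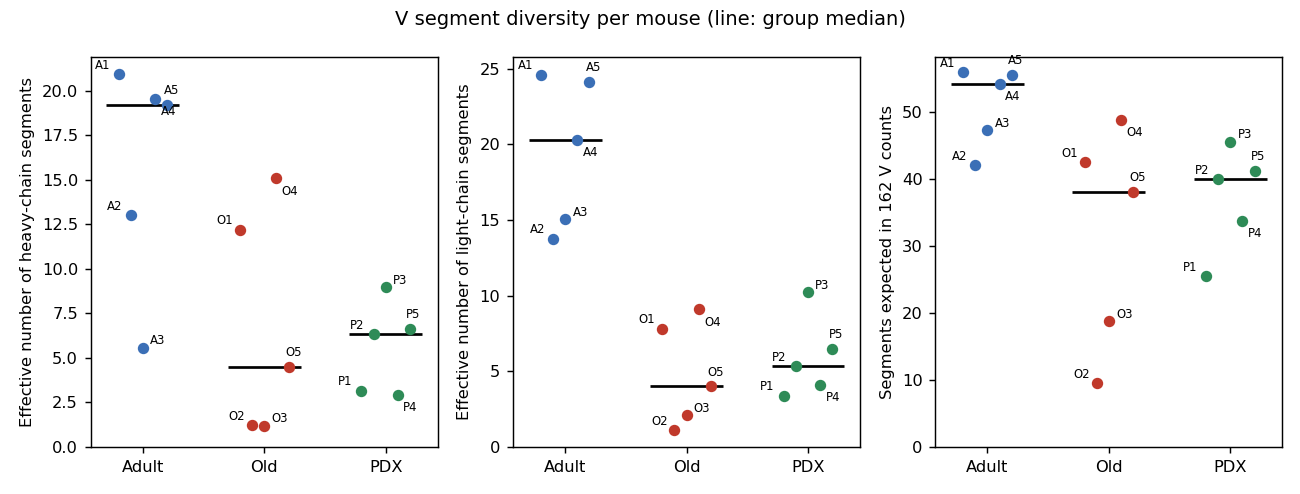
Effective number of heavy segments (left), of light segments (middle) and the number of segments expected in 162 V counts (right), 1 point per mouse, with a line at the median of each group. In the middle panel the Adult mice lie at 13.8 to 24.6 and the Old and PDX mice at 1.10 to 10.2, while in the other panels single older mice reach the Adult range.

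Most of the 82 segments were carried by few mice. A median of 36.4% of a segment's CPM, summed over the 15 mice, came from the mouse with the most, against 11.3% over the 18049 other genes with 50 or more counts and 6.67% for an even spread. In 25 segments (30.5%) 1 mouse held over 50%, against 2.09% of the other genes, and in 5 segments 1 mouse held over 90%. These 5 were Igkv3-7 in O3 (97.4%), Igkv17-127 in O2 (97.2%), Igkv4-61 in P3 (97.1%), Ighv9-4 in P1 (93.8%) and Ighv1-22 in P4 (90.7%). Igkv4-61 had 123 counts in P3 and at most 1 in any other mouse. A segment could thus pass the 50-count rule through a single mouse, and the other genes were not matched for level. The contrast with the other genes is therefore a description and no test of the segments. The highest mouse was a PDX mouse for 54 segments, an Old mouse for 27 and an Adult mouse for 1, Igkv8-16 in A3 with 45 of 61 counts. P2 and P3 were the highest for 19 and 20 segments.

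A few segments were present in all livers. Counts in all 15 mice were found for 11 segments, and 10 or more counts in all 15 mice only for Igkv5-39. Its counts were 23, 25, 14, 38 and 21 in A1 to A5, 15, 90, 19, 44 and 59 in O1 to O5 and 17, 154, 68, 79 and 38 in P1 to P5. The level of Igkv5-39 was 0.603 to 1.39 CPM in Adult, 0.637 to 2.63 CPM in Old and 0.671 to 6.18 CPM in PDX, so the 3 groups overlapped. The most even segment was Igkv1-135, with 12.6% of its CPM in the highest mouse and a range of 0.106 to 0.682 CPM. At the other end, Igkv17-127 in all mice made up 24.6% of the 30117 counts of the 82 segments, and the 10 largest segments together 58.0%.

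The lambda chain, which few mouse B cells use, took a smaller share of the light V counts in 9 of the 10 older mice than in any Adult mouse. The share of Iglv1, Iglv2 and Iglv3 was 12.6, 8.26, 9.78, 10.6 and 10.6% in A1 to A5, 5.56, 0.276, 2.63, 10.1 and 3.69% in O1 to O5 and 1.55, 4.75, 5.28, 2.86 and 4.95% in P1 to P5. O4 alone among the older mice lay within the Adult range. Iglv1 was the main lambda segment with 602 counts, of which 111 were in O4, 122 in P2 and 129 in P3. Light V counts were 1.52 to 3.94 times the heavy V counts in all mice, with the highest ratio in O2.

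The Ighv1 family, the largest group of mouse heavy V segments, held 17 of the 34 heavy segments and most heavy counts. Its share was 46.0 to 80.5% in Adult (median 58.9%), 62.5 to 95.6% in Old (median 87.9%) and 14.5 to 73.4% in PDX (median 65.8%), so all 3 groups overlapped. The lowest share belonged to P1, where Ighv9-4 and Ighv11-2 led. In the kappa chain, Igkv17 made up 95.6% of kappa V counts in the highest Old mouse, O2, and Igkv4 59.8% in the highest PDX mouse, P4. In the Adult mice no kappa family exceeded 27.6%.

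Segment by segment, Old was compared with Adult, the groups of different age among the vehicle mice. Igkv17-127, Igkv6-15, Igkv3-2 and Ighv1-55 rose and no segment fell (edgeR's quasi-likelihood test, Benjamini-Hochberg adjustment over 15808 genes, threshold 0.05). Over all genes tested, 4.71% were called higher and 2.07% lower. The test covered 28 of the 82 segments, those that passed a filter on low counts. A segment could pass through the group in which it was high, so the count of 4 of 28 is given as a description and supports nothing. At an unadjusted p under 0.05, 16 of the 28 were higher and 0 lower, against 17.9% and 9.81% of all genes, a description with the same limit. DESeq2, another count test, was run without that filter and called 15 of the 82 higher and 0 lower. Its share over all genes is not given here, so this count cannot be judged against one. The count of 4 in edgeR was 0 without any 1 Adult mouse, 7 without O2, 13 without O3 and 8 without O5. These fits filtered the genes and estimated the spread anew, and their shares over all genes are not given here.

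Igkv17-127 had 0, 1, 1, 1 and 2 counts in A1 to A5 and 8, 7244, 0, 9 and 0 in O1 to O5. Its log2 fold change of 10.12 (SE 2.58, adjusted p = 0.0337, edgeR) was that of a single mouse, since O3 and O5 had no count. Without O2 it was 2.15 with an adjusted p of 0.302. Ighv1-55 had 0.141, 0.211, 0.228, 0.110 and 0.0861 CPM in A1 to A5 and 1.91, 51.3, 0, 1.56 and 0.758 CPM in O1 to O5. O3 had no count, and the other Old mice were above all Adult mice. The log2 fold change was 6.16 (SE 1.69, adjusted p = 0.0426, edgeR) and 2.77 without O2 (adjusted p = 0.185).

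Igkv3-2 had 0.0562, 0, 0.182, 0.256 and 0.0574 CPM in A1 to A5 and 1.36, 0.966, 0.151, 12.3 and 5.05 CPM in O1 to O5, and O3 alone among the Old mice lay within the Adult range. The log2 fold change was 5.19 (SE 1.39, adjusted p = 0.0393, edgeR) and 4.12 without O4 (adjusted p = 0.0587). Igkv6-15 had 0.141, 0.141, 0.502, 0.256 and 0.0287 CPM in A1 to A5 and 2.38, 0.263, 0.905, 0.669 and 17.1 CPM in O1 to O5, with O2 within the Adult range. The log2 fold change was 4.36 (SE 1.12, adjusted p = 0.0340, edgeR) and 2.34 without O5 (adjusted p = 0.0617). Leaving out any 1 Adult mouse ended all 4 calls (adjusted p of 0.0644 to 0.102), and in those fits the filter let 40 of the segments through.

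Fitted without that filter but with the 50-count rule, all 82 segments could be tested. Then 5 were called higher, the 4 above and Igkv3-10 (log2 fold change 3.50, SE 0.88, adjusted p = 0.0355, edgeR), and 0 lower, against 4.10% higher and 1.47% lower of the 18131 genes. The median log2 fold change over the 82 segments was 1.61, and over all 18131 genes 0.10. The group median was higher in Old than in Adult for 62 segments and lower for 14. A segment could pass the 50-count rule through the older mice, which held most V counts. These calls, medians and directions are thus descriptions too and support nothing. Of the 82, 3 did not overlap (Ighv1-53, Ighv8-8 and Igkv12-46, all higher in Old), a share near that of all genes, of which 3.39% were higher and 3.99% lower without overlap.

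PDX was compared with the same Adult mice, so this comparison shares its control samples with the last. Ighv14-4, Igkv6-20, Igkv3-2, Ighv1-53, Ighv3-6, Igkv19-93 and Igkv12-46 rose and no segment fell, so 7 of 28, against 1.76% of all genes tested called higher and 0.898% lower. Here too a segment could pass the filter through the group in which it was high. This count and that at an unadjusted p are thus descriptions and support nothing. At an unadjusted p under 0.05, 16 of 28 were higher and 0 lower, against 11.2% and 9.41% of all genes. DESeq2, run without the filter, called 20 of the 82 higher and 0 lower, and its share over all genes is not given here. The count of 7 in edgeR was 1 or 2 without any 1 Adult mouse, 2 without P2, 4 without P3, 17 without O2 and 13 without O5. These fits also had their own filter and spread, and their shares over all genes are not given here. Igkv3-2 was the segment past the threshold in both comparisons. Over all 82 segments with the 50-count rule, 10 were called higher (1.46% of all genes) and 0 lower (0.717%). The median log2 fold change was 2.32, against 0.01 over all genes. These values have the same limit, since a segment could pass the 50-count rule through the older mice.

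Ighv14-4 had 3, 0, 0, 1 and 0 counts in A1 to A5, 2, 2, 2, 13 and 10 in O1 to O5 and 10, 42, 38, 38 and 28 in P1 to P5. All PDX mice were above all Adult mice, and P1 was within the range of the Old mice. Its log2 fold change against Adult was 5.19 (SE 0.81, adjusted p = 0.00349, edgeR) and stayed called without each mouse in turn, with adjusted p of 0.00147 to 0.0164. Igkv6-20, of whose 50-base words only 35.9% are its own, had 0, 0.106, 0.0912, 0.0366 and 0.0287 CPM in A1 to A5, and 0.434, 2.57, 1.80, 1.68 and 1.82 CPM in P1 to P5. The groups did not overlap. The log2 fold change was 4.97 (SE 0.98, adjusted p = 0.0152, edgeR), and the call was lost without A4 (adjusted p = 0.0511) or A5 (adjusted p = 0.0551). In the Old mice Igkv6-20 had 0.0425, 0.0293, 0.0377, 1.04 and 0.577 CPM, so O4 and O5 lay among the PDX mice and the other Old mice among the Adult mice.

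Igkv3-2 had 0.118, 30.5, 17.9, 4.00 and 3.51 CPM in P1 to P5, a log2 fold change of 6.69 against Adult (SE 1.43, adjusted p = 0.0216, edgeR), with P1 in the Adult range. Ighv1-53 had 0.118, 4.18, 8.93, 1.36 and 0.447 CPM in P1 to P5 against 0 to 0.220 CPM in Adult, a log2 fold change of 5.10 (SE 1.17, adjusted p = 0.0307, edgeR). Again P1 alone lay within the Adult range. Ighv3-6 had 0.0395, 17.5, 3.82, 0.786 and 0.344 CPM in P1 to P5 against 0.0352 to 0.220 CPM in Adult (log2 fold change 5.28, SE 1.24, adjusted p = 0.0348, edgeR). Without P2 its log2 fold change was 3.44 (adjusted p = 0.112). Igkv12-46 had 0.197, 1.89, 0.442, 0.0357 and 9.87 CPM in P1 to P5 against 0 to 0.141 CPM in Adult (log2 fold change 4.88, SE 1.20, adjusted p = 0.0432, edgeR), and 2.91 without P5 (adjusted p = 0.0931). Igkv19-93 had 1.54, 1.69, 2.11, 0.357 and 0.138 CPM in P1 to P5 against 0.0705 to 0.256 CPM in Adult, the smallest of these rises (log2 fold change 2.80, SE 0.67, adjusted p = 0.0360, edgeR).

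These last 5 calls were also lost without any 1 Adult mouse (adjusted p of 0.0538 to 0.110) or without P2 (0.0572 to 0.112). Without P3, Ighv1-53, Ighv3-6 and Igkv19-93 were lost (0.0612 to 0.0929), without P1 Igkv19-93 (0.0879), and without O4 Igkv12-46 (0.0549). Of the 82 segments, 6 did not overlap between PDX and Adult, all higher in PDX, a share near that of all genes (9.66% higher and 8.28% lower). They were Ighv1-26, Ighv11-2, Ighv14-4, Ighv6-6, Igkv17-127 and Igkv6-20.

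PDX was compared with Old, the groups with and without protectin DX that were aged 22 months when the study began. Of the 28 segments tested, 0 passed an adjusted p of 0.05 in edgeR, and 0 passed 0.25, the threshold used for this comparison in the study, as for all genes (0.00% called). DESeq2 also called 0 at 0.05. At an unadjusted p under 0.05, 5 were higher and 2 lower, against 1.04% and 4.23% of all genes. The same filter limits this count, so it is a description that supports nothing. The smallest unadjusted p-values were those of Ighv14-4 (log2 fold change 2.38, SE 0.64), Ighv3-6 (3.93, SE 1.13) and Igkv17-127 (-5.31, SE 1.83), each with an adjusted p of 0.793 in edgeR. The value for Igkv17-127 turned to 2.65 without O2. The median log2 fold change over the 82 segments was 0.77 and over all genes -0.08, with the group median higher in PDX for 55 segments and lower for 27. No segment was without overlap between PDX and Old, against 0.143% (higher) and 0.199% (lower) of the genes with 50 or more counts.

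**Figure D4:**
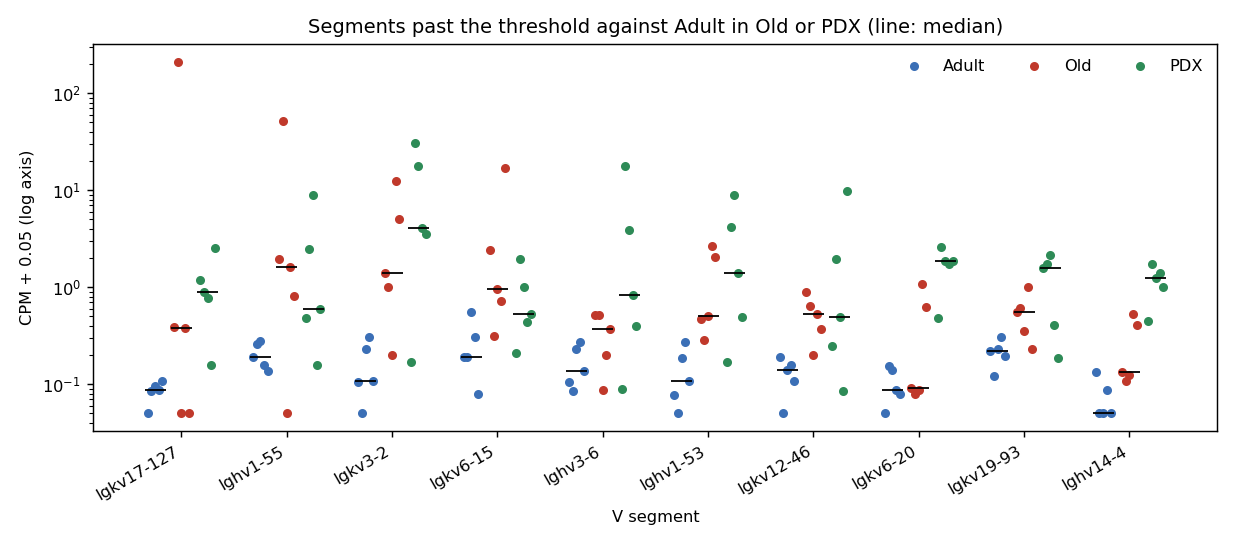
CPM (plus 0.05, log axis) of the 10 segments past the threshold against Adult in Old or PDX, 1 point per mouse, with a line at the median of each group. In Igkv17-127 a single Old mouse lies at 212.0 CPM and the other Old mice at or under 0.340 CPM, whereas in Ighv14-4 and Igkv6-20 all 5 PDX mice lie above all Adult mice.

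Segments that are known from B-1a cells, the self-renewing B cells of the body cavities, were counted as a list of 4. Ighv12-3 had 70 counts in P3 and 75 in P4, and at most 4 in any other mouse. Igkv4-91, which pairs with Ighv12-3 in a well-known antibody against phosphatidylcholine, had 134 counts in P3 and 119 in P4, and at most 6 in any other mouse. Both segments were thus high in the same 2 PDX mice. Ighv11-2 was highest in P1 (64 counts) and O4 (50 counts), and its usual partner Igkv14-126 in O4 (66 counts) and P2 (57 counts). P1, with the most Ighv11-2, had 3 counts of Igkv14-126. Of this list Ighv11-2 and Igkv14-126 could be tested, and 0 of 2 passed the threshold in any of the 3 comparisons. Without O2 1 was higher in PDX than in Adult, in a fit whose share over all genes is not given here.

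Some of the constant regions, to which V segments are joined, were called higher: those of IgM and of light chains. Of 11 constant genes tested (of 12), 5 were higher in Old than in Adult and 3 in PDX than in Adult, and 0 were lower. Over all genes, 4.71% were called higher in Old and 1.76% in PDX, and 2.07% and 0.898% lower. Ighd, Igha and the 4 Ighg genes passed in neither comparison, with log2 fold changes of -0.01 (Ighd) to 2.04 (Ighg1) in Old and 0.68 (Ighd) to 3.14 (Ighg1) in PDX. In PDX the value of Ighg1 had an SE of 1.13, and that of Iglc1, which was called, was 2.23 with an SE of 0.47. Not being called thus does not mean that the IgG genes were unchanged. Ighm, the constant region of IgM, had 344 to 782 counts in Adult, 4255 to 20907 in Old and 4581 to 15657 in PDX, without overlap between Adult and either older group (log2 fold change 3.76, SE 0.45, adjusted p = 0.00118 in Old and 4.14, SE 0.46, adjusted p = 0.000436 in PDX, edgeR). Igkc, the kappa constant region, had 215 to 370 counts in Adult, 1446 to 13283 in Old and 870 to 4982 in PDX (log2 fold change 3.54, adjusted p = 0.00897 in Old and 3.32, adjusted p = 0.00960 in PDX, edgeR). Iglc1, Iglc2 and Iglc3 were the other constant genes called in Old, where Iglc2 and Iglc3 lost the call without O2 (adjusted p = 0.0632 and 0.101). Iglc1 was the third called in PDX, where 5 constant genes passed without O2. The share of all genes called without O2 is not given here. Ighm made up 47.6 to 66.3% of the heavy constant counts in Adult, 79.1 to 96.0% in Old and 72.7 to 95.8% in PDX.

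V counts were set against constant counts in each mouse, and the groups overlapped in these ratios. Kappa V counts per Igkc count were 0.341 to 0.668, and heavy V counts per heavy constant count 0.0379 to 0.131, lowest in P5 for kappa and in P1 for the heavy chain and highest in O5 for both. V segments made up 13.7 to 18.3% of all immunoglobulin counts in Adult, 15.8 to 20.9% in Old and 8.49 to 17.8% in PDX. The 11 joining segments were counted too rarely to be tested. Their counts summed to 2 to 4 in the Adult mice, to 5, 121, 32, 4 and 19 in O1 to O5 and to 6, 10, 22, 10 and 17 in P1 to P5, so O2 and O3 were again highest.

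**Figure D5:**
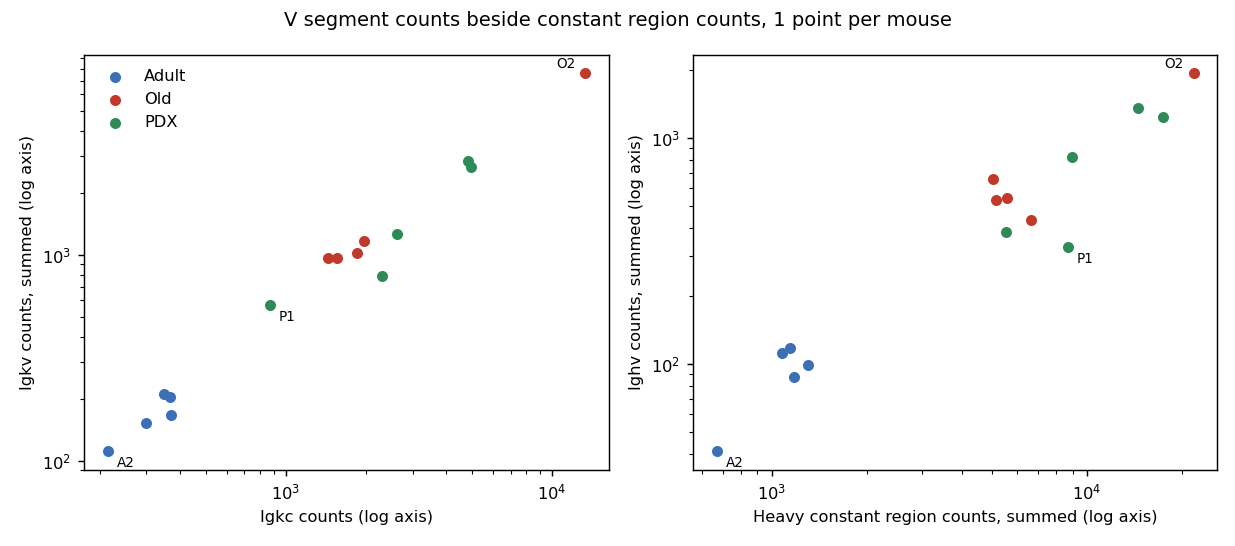
Summed Igkv counts against Igkc counts (left) and summed Ighv counts against heavy constant counts (right), 1 point per mouse, both axes logarithmic. The Adult mice lie lowest and O2 highest in both panels, and P1 has the fewest Igkv counts of the older mice, 570.

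The markers of the cells that carry V segments moved with the totals in part. Beside the counts below, 4.71% of all genes were called higher in Old and 1.76% in PDX than in Adult, and 2.07% and 0.898% lower. For the fits without O2 these shares are not given here, so changes in the counts cannot be told apart from a general change in calls. Of 13 plasma cell genes tested (of 14), 8 were higher in Old than in Adult, and 5 without O2. The 8 were Derl3, Fkbp11, Irf4, Mzb1, Pou2af1, Prdm1, Slamf7 and Tnfrsf13b. Not called in Old were Sdc1, Eaf2, Xbp1, Txndc5 and Jchain, with log2 fold changes of -0.12, 0.07, 0.25, 0.29 and 1.75. Derl3 and Jchain were higher in PDX than in Adult, where 9 passed without O2. Derl3, whose protein lies in the endoplasmic reticulum, had 43, 13, 2, 14 and 19 counts in A1 to A5, 289, 148, 42, 502 and 596 in O1 to O5 and 241, 60, 269, 338 and 100 in P1 to P5. Scaled for depth, Derl3 was at 0.0912 to 1.21 CPM in Adult, 1.58 to 21.5 CPM in Old and 2.41 to 12.1 CPM in PDX. Every older mouse was thus above all Adult mice in Derl3, with O3 the closest to them. Derl3 did not follow the other plasma cell genes in every mouse. It was highest in O5 and O4 (21.5 and 18.7 CPM), where Mzb1 was at 0.433 and 0.594 CPM. In O2, where Mzb1 was highest (6.23 CPM), Derl3 was at 4.33 CPM. Jchain, which links IgM and IgA into polymers, had 63 to 143 counts in Adult and 60 to 947 in PDX, with P1 at 60. At 2.37 CPM, P1 lay within the Adult range (2.22 to 4.15 CPM), and the other PDX mice lay above it. Of 12 B cell genes, Blk, Cd79a, Cd79b and Ms4a1 were higher in Old than in Adult and Cr2 lower, and without O2 0 were higher. In PDX against Adult 0 of the 12 passed, and 2 were higher without O2. The B cell genes summed to 12.6 to 20.1 CPM in Adult, to 25.0, 169.3, 145.8, 18.7 and 15.9 CPM in O1 to O5 and to 97.3, 38.1, 66.1, 36.7 and 43.9 CPM in P1 to P5. O2 and O3, with the most concentrated V segments, were thus also the highest in B cell markers, whereas O4 and O5 had V totals of 62.4 and 60.0 CPM with B cell markers within the Adult range.

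T cell genes summed to 183.3 CPM in O2 and to at most 31.7 CPM elsewhere, and 0 of 7 passed the threshold in any comparison. Without O2, Cd8a was higher in PDX than in Adult (log2 fold change 2.43, adjusted p = 0.00685, edgeR), and without O2 and O5 5 of the 7 were. Of 8 genes of developing B cells, Rag1, Rag2, Igll1 and Vpreb2 had no count in any mouse, which allows at most 3 counts each, and Dntt was higher in Old than in Adult (log2 fold change 1.57, SE 0.45, adjusted p = 0.0489, edgeR) but not without O2 (adjusted p = 0.0519). Of 3 tested genes of germinal centres and proliferation (of 4), Mki67 was higher in Old than in Adult, and 0 were higher without O2, whereas 1 was then higher in PDX than in Adult. Of the 4 hepatocyte genes, 0 passed in any comparison, and 1 was higher in PDX than in Adult without O2. In the comparison of PDX with Old 0 genes of any of these lists passed the threshold, as for all genes. The shares of all genes called against Adult given above hold for these lists too. They are not given here for the fits without O2 or without O2 and O5. The part of B cell, plasma cell and T cell numbers in the V segment levels was not tested.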

How the data were processed

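Poly(A) RNA of 15 livers (5 Adult, 5 Old, 5 PDX, grouped by the labels) was sequenced with a stranded kit. The authors aligned reads with STAR (2.6.0c) to mm10 and deposited raw counts of uniquely placed proper read pairs per Ensembl 100 gene, made with featureCounts (Subread 1.6.2) on the gene's strand. Mice are separate animals. The deposited log2 values were not used. Symbols and coordinates are from GENCODE M21 (GRCm38), matching 55104 of 55450 gene IDs, and 0 columns lacked a sample.

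Counts were tested with edgeR (4.0.16, R 4.3.3): filterByExpr by group (minimum count 10, total 15), TMM scaling, and the quasi-likelihood test in 1 fit of 15 mice, with Benjamini-Hochberg adjusted p-values over all genes tested, two-sided. Intervals are 95% Wilson intervals. The steps were tested on simulated data. Alternatives were DESeq2 (1.42.0), other scalings, filters, sets of mice and V genes, a diversity index and a replicate block. Replicate numbers were read from the mouse names and link different animals.

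Totals, detected segments and dominance are descriptions without a test, computed in Python 3.11.15. The segments and marker lists were chosen with earlier results of these data known. Named were the largest heavy and light segment of each mouse, the 10 largest segments, those past the threshold (or, with none, the 3 smallest p-values), those at the 50-count rule and the marker lists. Segments that were singled out for evenness or for a high share in 1 mouse (Igkv4-61, Igkv1-135), for not overlapping between groups, or as called only under the 50-count rule (Igkv3-10) were named after their values were seen.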

Additional observations from a re-analysis of the deposited data

Results flagged for a closer look

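The highest mouse of a group stood apart from the other 4 in 25 of 93 groups of 5 mice that were examined (24 named segments and 7 measures in 3 groups each), by a gap over 0.71 of the whole range of the group. Chance gives about 1 in 20 groups, but most of the segments were examined because they led in a mouse or passed a threshold, so the number of groups is no test and cannot be read against that rate. The V segment total of O2 (279.0 CPM) was apart from the other Old mice (57.3 to 71.0 CPM), and the largest heavy share of A3 (39.8%) from the other Adult mice (11.1 to 14.6%).

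Single segments stood apart 10 times in Old, 9 times in PDX and 4 times in Adult. In the Old mice these were Igkv17-127 (212.0 CPM) and Ighv1-55 (51.3 CPM) in O2, Igkv3-7 (25.2 CPM) and Ighv1-11 (18.3 CPM) in O3, Igkv6-15 (17.1 CPM), Ighv1-80 (10.6 CPM) and Ighv1-18 (2.597 CPM) in O5, and Igkv4-57-1 (14.3 CPM), Igkv12-89 (3.06 CPM) and Ighv1-52 (3.02 CPM) in O1. O4 was the Old mouse without such a segment. In the PDX mice they were Igkv4-57-1 (36.4 CPM) and Ighv3-6 (17.5 CPM) in P2, Igkv12-89 (20.3 CPM) and Ighv1-55 (8.86 CPM) in P3, Ighv1-22 (16.9 CPM) in P4, Igkv5-43 (11.7 CPM) and Ighv9-4 (6.75 CPM) in P1, and Igkv12-46 (9.87 CPM) and Ighv1-18 (4.64 CPM) in P5. In the Adult mice they were Ighv1-11 (2.14 CPM) and Igkv8-16 (2.05 CPM) in A3, Igkv4-57-1 (0.256 CPM) in A4 and Ighv9-4 (0.115 CPM) in A5, and the last 2 rest on 7 and 4 counts.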

How the results depend on the processing

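The counts of segments called higher than in Adult depended on the fit, and no segment was called lower in any comparison, or called at all between PDX and Old, under any alternative (edgeR or DESeq2). In Old, 4 segments were called with RLE factors and with TMM factors computed without immunoglobulin and T-cell receptor genes, 5 without a low-count filter or with the 50-count rule, 0 in a fit of the 10 mice compared, 11 without O2 and O5 and 15 with DESeq2. In PDX against Adult these counts were 7, 7, 10, 10, 5, 25 and 20. Without each mouse in turn they ranged from 0 to 13 in Old (0 without any 1 Adult mouse, 7 without O2, 13 without O3, 8 without O5) and from 1 to 17 in PDX (1 without A5, 2 without any other Adult mouse, 17 without O2, 13 without O5, 2 without P2, 4 without P3). The filter let 40 segments through when an Adult mouse was left out, and the cause of the other changes was not tested. Fits on other sets of mice filtered the genes and estimated the spread anew, and their shares over all genes are not given here. A change in these counts, or in those of the marker lists, thus cannot be told apart from a general change in calls. DESeq2 gave a p-value for 67 of the 82 segments. The log2 fold change of Igkv17-127 between PDX and Old, -5.31, ranged from -5.92 to 2.65 without each mouse in turn, with 2.65 without O2, and turned to 2.24 without O2 and O5 and to 0.20 with the replicate block.

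With the replicate number as a block, 0 segments were called in Old and 2 in PDX against Adult. Whether the numbers follow a batch was not tested, and 5 pairs per comparison are too few to decide it. Same-numbered mice deviated from their group means with a mean correlation of -0.168 between Old and Adult, 0.0920 between PDX and Old and 0.0310 between PDX and Adult. For mice of different numbers these means were 0.0435, -0.0225 and -0.00780. In these comparisons 0, 2 and 2 of 5 mice correlated best with their own number.

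The group medians of the descriptions moved where the choice of V genes or the index changed. With the V genes of 200 or more counts, the Adult medians were 3.74 CPM in total, 20.4 segments expected at the lowest total, effective numbers of 4.62 (heavy) and 9.42 (light) and largest shares of 37.9% (heavy) and 25.9% (light). In Old they were 14 segments with 10 or more counts and 14.3 expected, and in PDX 16.0 expected, 2.29 effective heavy segments and a largest heavy share of 63.8%. With all V genes, 77.2 segments were expected in Adult and 54.8 in PDX, at the higher lowest total of these genes, and the effective heavy number in Adult was 31.4. With the exponential of the Shannon entropy, the effective light numbers were 27.5, 9.31 and 11.3 in Adult, Old and PDX, and the heavy number in PDX 12.4. Of the values of these and the called counts, 273 stayed within their limits and 42 moved.

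Depth limits the Adult mice most, whose shares rest on 41 to 118 heavy and 121 to 236 light V counts. The log2 fold changes in Old of Igkv17-127 and Ighv1-55 fell to 2.15 and 2.77 without O2.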
